A study of Homo sapiens with 2 samples.

Results

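The genes described here serve the lysosome and autophagy. They are 46 named genes of the 19775 genes named on the array. They were chosen by function, with earlier results of these data known. By role, 21 belong to the lysosome itself (12 hydrolases, 2 lumenal carriers, 4 membrane proteins and 3 subunits of the proton pump), 23 to the autophagy machinery, and 2 are transcription factors that control both. All 105 probe sets that the platform annotation gives to these genes alone were read, and 82 of them were above background on both arrays.

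The RNA came from AGS, an established line of epithelial cells grown from a human gastric adenocarcinoma. One array held AGS cells treated with a synthetic small interfering RNA against galectin-3, and the other held control AGS cells. The sources used here do not state how the control cells were treated. The question was what silencing of galectin-3 does to gene expression in these cells. Each group is 1 array, so the groups cannot be tested against each other, and precision is limited by that number. A count of genes past 2-fold is therefore a description of these arrays. Fewer cells of a type and less RNA per cell cannot be told apart in such bulk RNA.

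The lysosome is the acidic compartment in which cells digest proteins, lipids and glycans. Its enzymes work in a lumen acidified by the vacuolar ATPase (V-ATPase), and its membrane is lined with glycoproteins such as LAMP1 and LAMP2. In autophagy a double membrane closes around cytoplasm to form an autophagosome, which then fuses with a lysosome. The transcription factors TFEB and TFE3 enter the nucleus when nutrient signalling falls and switch on genes of both systems. Galectin-3, a lectin that binds beta-galactosides, is known to gather on lysosomes whose membrane has broken and whose inner glycans have become exposed.

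The label of the silenced array was checked on the targeted gene. LGALS3, which encodes galectin-3, had a signal of 2700 on the silenced array, against 20206 on the control array, a log2 ratio of -2.90. Signals throughout are MAS5 intensities on a linear scale, and every log2 ratio is the silenced array over the control array. Background was read from 135 probe sets for olfactory receptor genes, whose 95th percentile set a floor of 109.5 on the silenced array and 138.4 on the control array. All 6 epithelial markers were above the floor on both arrays, with EPCAM at 19383 on the silenced array and 18867 on the control array, and with log2 ratios between 0.04 and 1.08. Of the 7 leukocyte markers on the arrays, CD53 alone was above the floor on both arrays, and the summed signal of the list was 366.2 on the silenced array and 360.7 on the control array. Of 6 fibroblast markers 4 were under the floor on both arrays. The other two were PDGFRA, at 921 on the silenced array and 2296 on the control array, and COL1A1, at 1502 on the silenced array and 816 on the control array. The part of these differences in the results was not tested.

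Each gene is represented by its probe set with the highest mean signal. By that choice 45 of the 46 members were above the floor on both arrays. CTSL, a cysteine protease, was the exception, with 112.1 on the silenced array and 65.2 on the control array, so that its ratio has no direction. The members' ratios were mostly above 0 and mostly small. Of the 45, 30 had a log2 ratio above 0, which is 66.7%, against 48.9% of all 9579 genes above the floor on both arrays. At least 2-fold higher were 4 members (8.70%), and 0 were at least 2-fold lower, where 3.31% and 3.07% of all 10514 genes measured passed in those directions. At least 1.5-fold higher were 8 members (17.4%), beside 10.6% of all genes, and 2 members (4.35%) were at least 1.5-fold lower, beside 10.4% of all genes. The median log2 ratio of the members was 0.22, with quartiles of -0.07 and 0.48, while the median of all genes measured was -0.02.

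**Figure D1:**
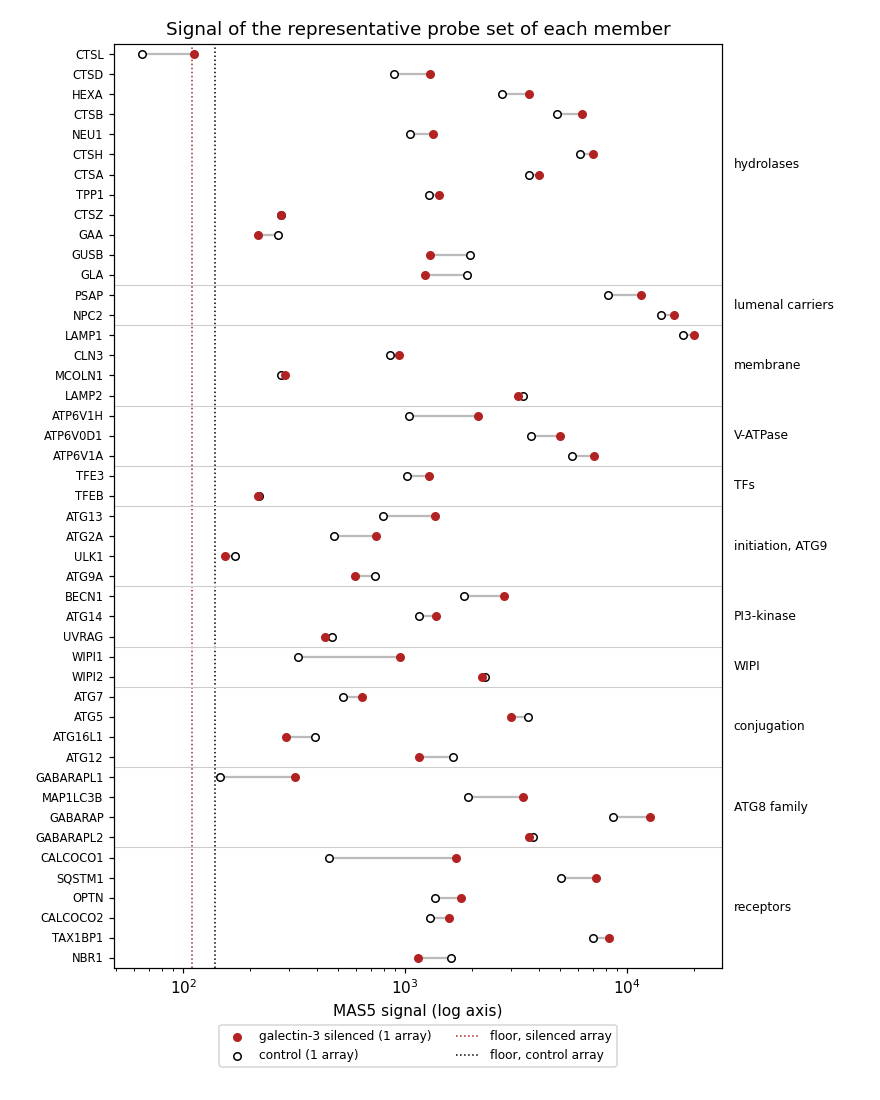
MAS5 signal (log axis) of the representative probe set of each of the 46 members, with the silenced array in red and the control array in white, 1 array each, and with dotted lines at the floor of each array. The longest gaps are those of CALCOCO1, WIPI1, GABARAPL1 and ATP6V1H, all toward higher signal on the silenced array, and CTSL is the only member with a representative probe set under a floor.

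Autophagy genes carried most of the larger differences. The 23 autophagy members had a median log2 ratio of 0.28, and the 21 lysosomal members one of 0.17, a difference of 0.11. Ratios above 0 were more frequent in the lysosomal class. They were 15 of the 20 lysosomal members above both floors (75%) and 14 of the 23 autophagy members (60.9%). Among all genes above both floors the share was 48.9%. Higher by 1.5-fold or more were 7 autophagy members (30.4%) and 1 lysosomal member (4.76%), beside 10.6% of all genes measured. Lower by that much were 0 autophagy members and 2 lysosomal members (9.52%), beside 10.4% of all genes measured. Among the class shares past 1.5-fold, only that of the higher autophagy members exceeded the share of all genes. Taken more narrowly, the 10 ATG8 family and receptor genes had a median of 0.46 and the 16 hydrolases and membrane proteins one of 0.14, a difference of 0.32. The genes of a class are not replicates, and the difference between the classes has no test. Without _s_at and _x_at probe sets, which can match more than 1 transcript, the order of the classes turned round. Then 13 lysosomal members were left with a median of 0.27 and 15 autophagy members with a median of 0.10, which puts the autophagy median lower by a log2 difference of -0.17.

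**Figure D2:**
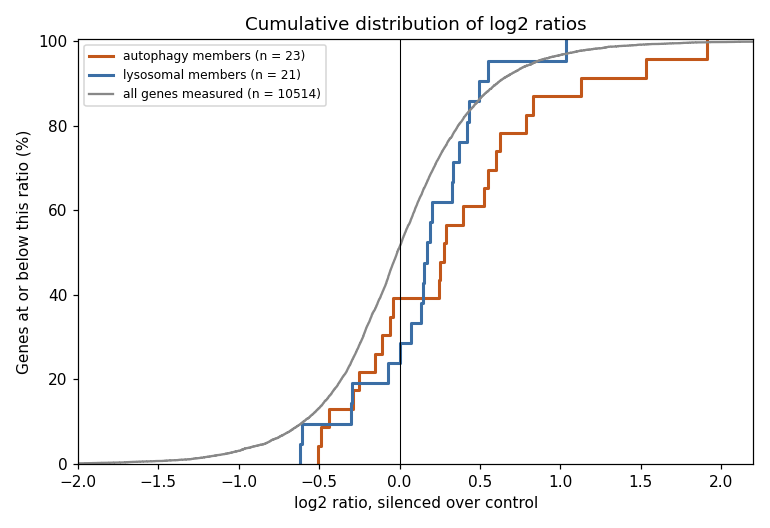
Share of genes (vertical axis, percent) at or below each log2 ratio of silenced over control (horizontal axis) for the 23 autophagy members, the 21 lysosomal members and all 10514 genes measured. The lysosomal curve lies right of that of all genes around its median of 0.17. At 1.5-fold higher it lies left, with 4.76% of lysosomal members and 10.6% of all genes at or beyond. The autophagy curve stays to the right of that of all genes up to the highest ratio of 1.91.

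The hydrolases, which break down proteins and glycans in the lumen, did not move in one direction. Above the floor on both arrays were 11 of the 12, of which 7 had a ratio above 0 and 4 a ratio below 0, and none passed 2-fold. The aspartic protease CTSD had the highest ratio, with a signal of 1299 on the silenced array and 886 on the control array, a log2 ratio of 0.55. HEXA, a subunit of the enzyme that trims the ganglioside GM2, followed with 3633 on the silenced array and 2720 on the control array, a log2 ratio of 0.42. In the other direction, GLA, the alpha-galactosidase lacking in Fabry disease, had 1229 on the silenced array and 1893 on the control array, a log2 ratio of -0.62. The beta-glucuronidase GUSB had 1288 on the silenced array and 1959 on the control array, a log2 ratio of -0.60. GLA and GUSB were thus the only members at least 1.5-fold lower, each on 1 probe set above the floor. The remaining hydrolases lay between them. The sialidase NEU1 had a log2 ratio of 0.33, the cathepsin CTSH had 0.19, CTSA, which binds and protects NEU1, had 0.15, the peptidase TPP1 had 0.14, the cathepsin CTSZ had 0.00, and the alpha-glucosidase GAA had -0.30.

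CTSB, an abundant cysteine cathepsin, gave different answers on its 5 probe sets. Its representative probe set had 6261 on the silenced array and 4842 on the control array, a log2 ratio of 0.37. A second probe set had a log2 ratio of 0.27. The other 3 had log2 ratios of -0.26, -1.01 and -1.10, and in the last of these the signal was 172.4 on the silenced array and 369.6 on the control array. The gene therefore has no settled direction here.

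The lumenal carriers were both slightly higher. PSAP, whose product is cut into the saposins that present lipids to the hydrolases, had 11600 on the silenced array and 8234 on the control array, a log2 ratio of 0.49, with 0.36 on a second probe set. NPC2, which carries cholesterol out of the lumen, had 16328 on the silenced array and 14188 on the control array, a log2 ratio of 0.20.

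The 4 membrane proteins stayed close to 0, with a median log2 ratio of 0.10. LAMP1 had 20039 on the silenced array and 17802 on the control array, a log2 ratio of 0.17, and its other probe sets had 0.18, 0.51 and -0.10. LAMP2, which takes part in chaperone-mediated autophagy through one of its isoforms, had 3221 on the silenced array and 3394 on the control array, a log2 ratio of -0.08. All 4 LAMP2 probe sets had ratios below 0, down to -0.69 on a probe set with 1079 on the silenced array and 1741 on the control array. The CLN3 protein, which is lost in juvenile Batten disease, had log2 ratios of 0.13 and 0.93 on its 2 probe sets, the second of the cross-hybridising _x_at kind. The calcium channel MCOLN1 had 288.3 on the silenced array and 274.5 on the control array, a log2 ratio of 0.07.

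All 3 V-ATPase subunits had ratios above 0 on their representative probe sets. ATP6V1H, a regulatory subunit of the cytosolic sector, had 2126 on the silenced array and 1039 on the control array. This was a log2 ratio of 1.03, the one lysosomal member past 2-fold. A second ATP6V1H probe set, close to the floor, had 135.4 on the silenced array and 151.6 on the control array, a log2 ratio of -0.16. ATP6V0D1, of the membrane sector, had 4963 on the silenced array and 3688 on the control array, a log2 ratio of 0.43. ATP6V1A, the catalytic subunit, had 7084 on the silenced array and 5649 on the control array, a log2 ratio of 0.33, and its second probe set had 0.22.

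The transcription factors differed little. TFEB had 216.7 on the silenced array and 220.3 on the control array, a log2 ratio of -0.02. TFE3 had 1277 on the silenced array and 1022 on the control array, a log2 ratio of 0.32, while a second TFE3 probe set had -0.07. An array measures their transcripts and not their place in the cell, which is where both factors are known to be controlled.

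Both factors are known to bind an E-box, CACGTG, best when it is extended to TCACGTGA. RefSeq promoters of build GRCh38.p14 were matched for 38 of the 46 members and searched on both strands. They run from 250 bases before to 50 after a start site of each gene. The extended form contains the short one, so the counts overlap. The short form was in 8 of 15 lysosomal promoters (53.3%), in 1 of 21 autophagy promoters (4.76%, that of ATG14) and in 7.43% of all 27305 promoters. The extended form was in 6 of the 15 lysosomal promoters (40%), in 0 of the 21 autophagy promoters and in 1.04% of all promoters. These are the 9 places that hold it, shown because all of them lie in lysosomal promoters and none in an autophagy promoter. The extended E-box is in capitals, each sequence reads along the strand of its gene, and LAMP1, GAA and MCOLN1 each hold it in 2 places.
ATP6V0D1, chr16:67481194-67481233, minus strand: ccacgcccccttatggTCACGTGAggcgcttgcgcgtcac
CLN3, chr16:28492053-28492092, minus strand: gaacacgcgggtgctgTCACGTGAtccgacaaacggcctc
CTSA, chr20:45891293-45891332, plus strand: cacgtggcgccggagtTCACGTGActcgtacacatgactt
GAA, chr17:80101488-80101527, plus strand: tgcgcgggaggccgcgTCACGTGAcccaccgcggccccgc
GAA, chr17:80101533-80101572, plus strand: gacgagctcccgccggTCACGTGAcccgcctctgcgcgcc
LAMP1, chr13:113297194-113297233, plus strand: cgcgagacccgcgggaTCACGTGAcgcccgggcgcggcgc
LAMP1, chr13:113297221-113297260, plus strand: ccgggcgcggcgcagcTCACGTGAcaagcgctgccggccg
MCOLN1, chr19:7522566-7522605, plus strand: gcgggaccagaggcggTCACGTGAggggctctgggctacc
MCOLN1, chr19:7522593-7522632, plus strand: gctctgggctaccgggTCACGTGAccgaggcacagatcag
All 9 begin between 77 and 2 bases before the start site of the promoter used. For CLN3 that site lies inside the gene's listed span, which on this strand begins at 28492082. The 6 members with the extended form had log2 ratios from -0.30 for GAA to 0.43 for ATP6V0D1, with a median of 0.14. The other 32 members with a promoter had a median of 0.22. None of the 4 members past 2-fold is among those 6, and of the 4, ATP6V1H and CALCOCO1 had no matched promoter. A match is a description of the letters and not a binding site. Whether TFEB or TFE3 acted on any of these genes was not tested.

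Autophagy begins with the ULK1 kinase complex, and its genes were split. ATG13, the adaptor of that complex, had 1368 on the silenced array and 793.7 on the control array, a log2 ratio of 0.79. Its other 2 probe sets had 0.71 and 0.55, so all of them were higher on the silenced array. ATG2A, which moves lipids into the growing membrane, had 735.7 on the silenced array and 477.7 on the control array on its only probe set, a log2 ratio of 0.62. The kinase gene ULK1 itself was near the floor, with 154.9 on the silenced array and 172 on the control array, a log2 ratio of -0.15. ATG9A, the lipid scramblase that seeds the membrane, had 597.5 on the silenced array and 730.5 on the control array, a log2 ratio of -0.29.

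In the lipid kinase complex that marks the new membrane, BECN1 was the member that differed most. This scaffold gene had 2796 on the silenced array and 1846 on the control array, a log2 ratio of 0.60, and its second probe set above the floor had 0.63. ATG14, the subunit that brings the complex to autophagosomes, had 1378 on the silenced array and 1158 on the control array, a log2 ratio of 0.25. UVRAG, the alternative subunit of later steps, had 433.3 on the silenced array and 466.6 on the control array, a log2 ratio of -0.11.

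The WIPI proteins read the lipid that this kinase makes, and the pair differed from each other. WIPI1 had 949.7 on the silenced array and 328.1 on the control array, a log2 ratio of 1.53, which is 2.89-fold higher. Its second probe set had 842.1 on the silenced array and 330.4 on the control array, a log2 ratio of 1.35. WIPI2, which recruits the conjugation machinery, had 2219 on the silenced array and 2284 on the control array, a log2 ratio of -0.04. Its other 3 probe sets above the floor lay between -0.11 and 0.08. No WIPI1 probe set came near the range of the WIPI2 probe sets.

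The conjugation genes, which attach ATG8 proteins to the membrane, were the one autophagy role with a median below 0, at -0.35. ATG12, a ubiquitin-like protein, had 1161 on the silenced array and 1648 on the control array, a log2 ratio of -0.51, with -0.23 on another probe set. ATG16L1, which places the conjugate on the membrane, had log2 ratios of -0.44 and -0.89, the second with 149.7 on the silenced array and 277.1 on the control array. ATG5, the partner to which ATG12 is joined, had 2992 on the silenced array and 3568 on the control array, a log2 ratio of -0.25, with -0.21 and -0.65 on the other 2 probe sets. These are the parts of 1 complex, and all 7 of their probe sets above the floor had ratios below 0, though no gene passed 1.5-fold on its representative probe set. ATG7, the activating enzyme of the pathway, went the other way, with 638.3 on the silenced array and 526.5 on the control array, a log2 ratio of 0.28, repeated at 0.29 by a second probe set.

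The ATG8 family, which coats the autophagosome and binds cargo receptors, had a median log2 ratio of 0.69. MAP1LC3B, known as LC3B and used as the standard marker of autophagosomes, had 3403 on the silenced array and 1915 on the control array, a log2 ratio of 0.83. Its second probe set had 3586 on the silenced array and 1273 on the control array, a log2 ratio of 1.49. GABARAPL1 had 319.5 on the silenced array and 146.4 on the control array, a log2 ratio of 1.13 that is 2.18-fold higher. These signals were low. On the second GABARAPL1 probe set the control signal of 127.3 was under the floor, and with 274.7 on the silenced array the gene was at least 1.98-fold higher. With a floor 2 times higher its log2 ratio was a bound of 0.21. GABARAP had 12631 on the silenced array and 8618 on the control array, a log2 ratio of 0.55. GABARAPL2, known for transport within the Golgi, had 3612 on the silenced array and 3766 on the control array, a log2 ratio of -0.06. GABARAPL1 belongs to a family with similar sequences, so probe sets of the _s_at kind may share signal between members.

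The promoters of WIPI1, GABARAPL1 and MAP1LC3B are printed in full because these 3 genes had the highest ratios among members with more than 1 probe set in support and a RefSeq promoter. Capitals mark the GC box, GGGCGG, on either strand and the cyclic AMP response element, TGACGTCA, which do not overlap each other. Both motifs were chosen after these sequences and ratios had been seen.
WIPI1, chr17:68457447-68457746, minus strand: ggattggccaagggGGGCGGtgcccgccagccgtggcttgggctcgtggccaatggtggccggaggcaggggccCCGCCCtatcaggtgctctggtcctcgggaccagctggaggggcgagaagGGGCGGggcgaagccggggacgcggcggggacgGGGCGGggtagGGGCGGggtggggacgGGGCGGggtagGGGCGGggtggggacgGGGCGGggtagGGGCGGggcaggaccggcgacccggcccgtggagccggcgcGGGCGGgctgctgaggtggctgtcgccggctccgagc
GABARAPL1, chr12:10212627-10212926, plus strand: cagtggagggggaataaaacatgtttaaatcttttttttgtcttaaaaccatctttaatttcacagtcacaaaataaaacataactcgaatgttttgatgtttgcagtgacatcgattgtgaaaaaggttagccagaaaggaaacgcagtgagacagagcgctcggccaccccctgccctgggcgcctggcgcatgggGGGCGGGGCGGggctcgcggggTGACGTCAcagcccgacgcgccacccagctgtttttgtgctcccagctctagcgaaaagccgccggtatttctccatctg
MAP1LC3B, chr16:87392086-87392385, plus strand: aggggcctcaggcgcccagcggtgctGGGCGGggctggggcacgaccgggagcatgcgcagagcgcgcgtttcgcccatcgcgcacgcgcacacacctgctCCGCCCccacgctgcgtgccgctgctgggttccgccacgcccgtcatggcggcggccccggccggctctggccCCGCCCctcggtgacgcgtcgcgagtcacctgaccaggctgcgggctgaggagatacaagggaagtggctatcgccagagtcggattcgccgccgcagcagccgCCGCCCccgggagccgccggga
The GC box occurs 10 times in the WIPI1 promoter, 2 times in that of GABARAPL1 and 4 times in that of MAP1LC3B. It is also in 44.6% of all promoters and in 28 of the 38 member promoters, which are rich in G and C (median 66.5%, against 58.3% over all promoters). The cyclic AMP response element is in the GABARAPL1 promoter, 30 bases before the start site, in no other member promoter of the 38, and in 1.98% of all promoters. None of the 3 holds the short E-box. The forkhead motif GTAAACA was in 2 member promoters, those of CTSL and CALCOCO2, and in 3.41% of all promoters.

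The cargo receptors bind both a cargo and an ATG8 protein. Of the 6, 5 had a representative ratio above 0, and their median log2 ratio was 0.34. CALCOCO1, a receptor for the endoplasmic reticulum and the Golgi, had 1699 on the silenced array and 451.9 on the control array. This log2 ratio of 1.91, or 3.76-fold higher, was the largest difference among the members. It rests on the gene's only probe set, which is of the _s_at kind. Its paralog CALCOCO2, or NDP52, which delivers bacteria and binds galectin-8 on broken vacuoles, had 1584 on the silenced array and 1300 on the control array, a log2 ratio of 0.29. Another CALCOCO2 probe set had 286.4 on the silenced array and a control signal of 118.7, under the floor, which makes it at least 2.07-fold higher.

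SQSTM1, or p62, the receptor of ubiquitinated aggregates, had 7230 on the silenced array and 5027 on the control array, a log2 ratio of 0.52. The other 3 SQSTM1 probe sets above the floor had log2 ratios of 0.10, 0.07 and -0.55. TAX1BP1 had 8288 on the silenced array and 7004 on the control array, a log2 ratio of 0.24, and all 3 of its probe sets were above 0. OPTN, a receptor for damaged mitochondria, had 1791 on the silenced array and 1364 on the control array, a log2 ratio of 0.39, but -0.92 on a second probe set, with 123.3 on the silenced array and 233.8 on the control array. NBR1, which acts beside SQSTM1, had 1142 on the silenced array and 1602 on the control array, a log2 ratio of -0.49. The other NBR1 probe sets opposed this, with a log2 ratio of 0.22 on one and a bound of 0.45 on another. The direction of OPTN and NBR1 thus differed between their probe sets.

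**Figure D3:**
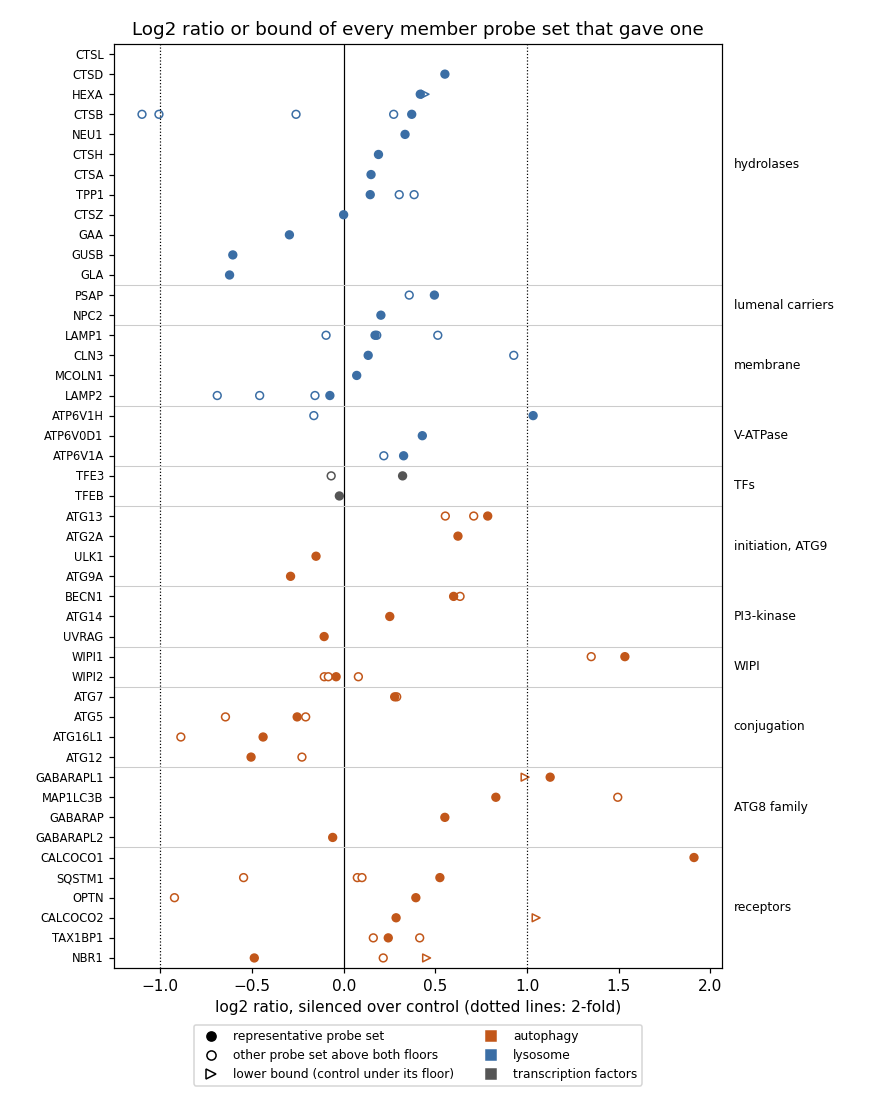
Log2 ratio of silenced over control (horizontal axis) for every member probe set that gave a ratio or a lower bound, with filled circles for representative probe sets, open circles for the other probe sets above both floors, triangles for bounds, and dotted lines at 2-fold. WIPI1, MAP1LC3B, ATG13 and BECN1 had all their probe sets well above 0, LAMP2, ATG5, ATG12 and ATG16L1 had all of theirs below 0, and those of CTSB run from -1.10 to 0.37.

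Agreement between probe sets sets a scale for these differences. In 22 members with several probe sets that cleared both floors, 14 had all of them on the same side of 0, 10 above it and 4 below it. Of all 4728 genes with several such probe sets, 1404 had all of them above 0 and 1631 had all of them below 0. Signs were mixed in 8 of the 22 (36.4%), close to the 35.8% of all 4728 such genes. Between the probe sets of a single gene, log2 ratios had a pooled SD of 0.39 in the members and 0.32 in all genes. This spread is within the same pair of RNA samples and says nothing of repeat cultures. All probe sets above both floors were at least 1.5-fold higher in 3 of the 22 members, which were WIPI1, MAP1LC3B and BECN1. The same held for 209 of the 4728 genes.

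A wider list of 121 other genes of the same pathways gave a similar picture. It was drawn up by function, with earlier results of these arrays known. On the arrays were 111 of them, and 97 were measured, with a median log2 ratio of 0.22. At least 2-fold higher were 4 (4.12%) and 0 were at least 2-fold lower, which is close to the 3.31% of all genes on the higher side. At least 1.5-fold higher were 17 (17.5%), and 1 (1.03%) was at least 1.5-fold lower. Of all genes 10.6% and 10.4% passed in those directions. The list thus leaned the same way as the members, on the same pair of arrays.

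The remaining V-ATPase subunits leaned furthest among the lysosomal groups. Of 12 measured, 11 had a ratio above 0, with a median log2 ratio of 0.53. At least 1.5-fold higher were 4 (33.3%), beside 10.6% of all genes. With the 3 members, 14 of 15 subunits had a ratio above 0, with a median of 0.50. The 21 other hydrolases measured had a median of 0.20, with 13 above 0, 7 below 0 and 1 without direction, and none past 2-fold. Of 17 other lumenal and membrane proteins, 12 were above 0 and 5 below, with a median of 0.14. SLC17A5, which exports sialic acid from the lysosome, was the one of these past 2-fold, with 5192 on the silenced array and 2274 on the control array, a log2 ratio of 1.19.

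Among the other autophagosome genes 20 of 25 measured had a ratio above 0, with a median of 0.23. WDR45, a relative of the WIPI proteins, had 1439 on the silenced array and 714 on the control array, a log2 ratio of 1.01. All 6 other receptors measured were above 0, with a median of 0.73. RETREG1, a receptor for the endoplasmic reticulum, had 1326 on the silenced array and 361.4 on the control array, a log2 ratio of 1.88. BNIP3L, a receptor for mitochondria, had 2167 on the silenced array and 1023 on the control array, a log2 ratio of 1.08. Counting members and others together, 11 of 12 receptors had a ratio above 0 (91.7%) and 3 passed 2-fold (25%). The shares over all genes were 48.9% above 0 and 3.31% at least 2-fold higher. The genes of nutrient signalling at the lysosome did not share the lean of the receptors. Of 16 measured, 7 were above 0, 8 below and 1 without direction, with a median of -0.03.

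**Figure D4:**
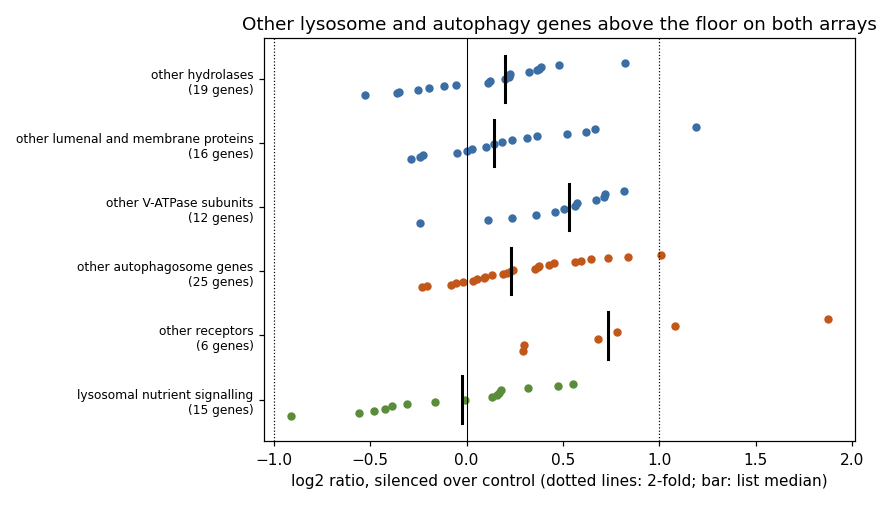
Log2 ratio of silenced over control (horizontal axis) of the other pathway genes above the floor on both arrays, 1 point per gene on its representative probe set, with a bar at the list median and dotted lines at 2-fold. Receptors and V-ATPase subunits lie mostly right of 0, with medians of 0.73 and 0.53, and nutrient signalling genes lie around 0, with a median of -0.03.

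Scaling the arrays by their spiked controls moves every gene alike. With equal poly-A controls the median of all genes was -0.25, that of the lysosomal members -0.06 and that of the autophagy members 0.04. Relative to all genes these medians stayed at 0.19 and 0.29. With equal hybridization controls the median of all genes was 0.17, and the members' medians were 0.35 for the lysosome and 0.46 for autophagy. WIPI1 and CALCOCO1 were at least 2-fold higher under every scaling tried, with log2 ratios of at least 1.30 and 1.68. ATP6V1H and GABARAPL1 stopped short of 2-fold with equal poly-A controls.

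**Figure D5:**
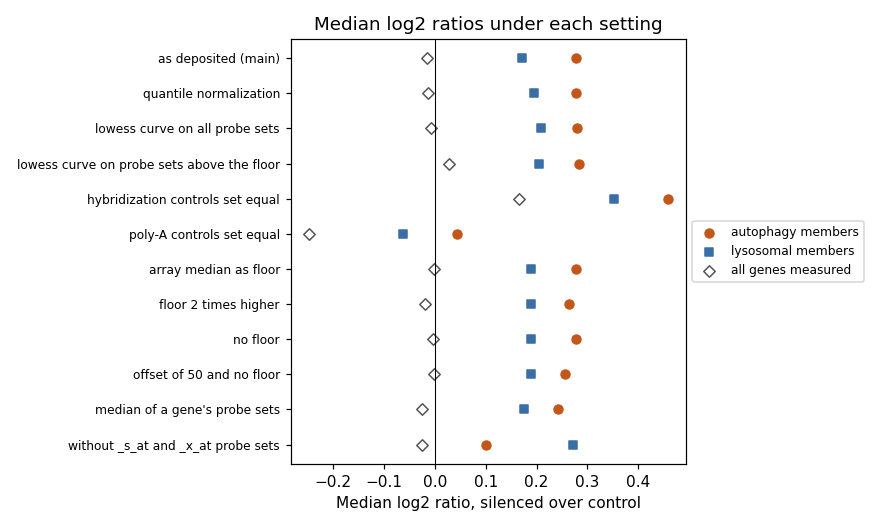
Median log2 ratio of silenced over control (horizontal axis) of the autophagy members, the lysosomal members and all genes measured under the reported setting and 11 alternatives. Both member medians lie right of that of all genes in every setting, the control-based scalings shift all 3 together, and the order of the member medians turns only without _s_at and _x_at probe sets (0.10 for autophagy and 0.27 for the lysosome).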

How the data were processed

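Per the labels' protocols, total RNA came from a Trizol extraction and was turned into biotinylated cRNA for Affymetrix arrays of one colour. Per the submitters' processing notes the authors used MAS5, and the deposited values are its intensity values on a linear scale. Which version and scaling target they used is not stated in these sources. The 2% trimmed mean was 500.07 on both arrays, so their scaling was kept, and a difference in total RNA between the cultures could not be seen. MAS5 summarises each probe set by itself, so low signals are noisy.

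Arrays were grouped by title, 1 per group, so no test was made. Of 54675 probe sets, 41097 carry 1 gene symbol in the platform annotation, and 41043 of these matched RefSeq gene identifiers (GRCh38.p14). Probe sets with several symbols or none were not used. Signals under the floor were raised to it, and a gene above it on 1 array only has a bound. Bounds without direction stayed in medians at their bound, as did CTSL at -0.30. Probe sets of the _x_at kind represented a gene only where it had no other. The members, lists and named genes were chosen with earlier results of these data known. Named are LGALS3, members past 1.5-fold, the extremes of each role, 5 preset members and other pathway genes past 2-fold, and every other member is accounted for. Lowess curves used a span of 0.3. Python 3.11.15, pandas 2.3.3 and statsmodels 0.14.6 were used, and the gene summary was tested on simulated data.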

Additional observations from a re-analysis of the deposited data

How the results depend on the processing

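Each value was recomputed under 11 alternatives of scaling, floor, offset and probe set choice. No paired analysis was possible because each group holds 1 array. The members past 2-fold higher, 4 as reported, were 2 with equal poly-A controls and 2 with an offset of 50 and no floor. Without _s_at and _x_at probe sets only 30 members could be measured, and 2 passed, WIPI1 and, by a bound, CALCOCO2. CALCOCO1, ATP6V1H and GABARAPL1 had no value there. Members past 2-fold higher were 3 to 5 under the other alternatives, and 0 members were 2-fold lower in any. The median of all members, 0.22 as reported, was -0.011 with the poly-A controls and 0.40 with the hybridization controls set equal. The lysosomal median was -0.063 and 0.35 under these 2 scalings, and 0.27 without _s_at and _x_at probe sets. The autophagy median was 0.044, 0.46 and 0.10 in the same order. Both scalings shift every gene by a constant, so medians relative to all genes did not move. Leaving out _s_at and _x_at probe sets turned the autophagy minus lysosomal difference to -0.17, with 13 lysosomal and 15 autophagy members left. Under the 10 others it lay between 0.07 and 0.11. LGALS3 had a log2 ratio between -3.14 and -2.72 under the 10 alternatives that gave one, and none without _s_at and _x_at probe sets. When each gene took the median over its probe sets, ATP6V1H had a log2 ratio of 0.43 and MAP1LC3B one of 1.16.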
